A study of Papio anubis with 8 samples.

Results

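The receptors that bind retinoic acid and the enzymes that make, oxidise or degrade it were described in the fetal baboon hippocampus. The set was defined by 9 gene symbols: the retinoic acid receptors RARA, RARB and RARG, the retinoid X receptors RXRA and RXRG, the dehydrogenases ALDH1A1 and ALDH1A2, the hydroxylase CYP26B1 and the aldehyde oxidase AOX1. They were chosen with their values in these data known, so their levels and ranges are a description and no test was made on them. Of the 9 symbols, 7 had a row among the 37053 genes of the deposited table. No row carried the symbol ALDH1A2 or CYP26B1, and 1 row for each was found by its deposited description after the table had been read. These rows are LOC116275817, described as retinal dehydrogenase 2, and LOC101001697, described as cytochrome P450 family 26 subfamily B member 1. They are given under those identifiers and counted apart. A further row, LOC101013243, is described as the family's subfamily A member 1, the CYP26A1 enzyme, and is set beside them.

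Retinoic acid is made from vitamin A (retinol) in successive oxidations, first to retinaldehyde by retinol dehydrogenases and then to the acid by retinaldehyde dehydrogenases of the ALDH1A family. It binds the receptors RARA, RARB and RARG, which sit on DNA as dimers with an RXR and switch from repression to activation of nearby genes. CYP26 enzymes hydroxylate the acid and end its action, and several of these genes, RARB and CYP26A1 among them, are themselves known targets of the receptors. In the brain the meninges are a known source of retinoic acid, and the signal takes part in neuronal differentiation and synaptic plasticity of the hippocampus.

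The tissue was hippocampus taken at 0.9 of gestation from fetuses of the olive baboon, Papio anubis, and 25 ng of total RNA went into each of 8 strand-specific sequencing libraries. The study concerns mothers of different adiposity and leptin level, but the labels assign no library to a maternal group and do not say that each library is a different fetus. All 8 libraries, named AMB3 to AMB10, therefore stand without a group, and each library's value, or the median with the extremes, is reported.

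The smallest library, AMB9, held 40404878 counts and the largest, AMB10, 71648654, around a median of 58168732.5. Levels are in CPM, counts relative to a library of 1000000 after TMM scaling of the library sizes, and the range of a gene is its highest minus its lowest log2 CPM. The 7 dentate granule neuron markers examined had counts in every library, and their summed level lay between 190 and 609 CPM. In the deposited normalised values, the median over AMB3, AMB8 and AMB10 was 0 in 100% of 15556 well-counted genes, for a reason that the labels do not give.

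RARA, RARG and RXRA had ranges below 1, of which those of RARG (0.82) and RXRA (0.90) lay above the median of all genes tested. RARB, RXRG and AOX1 varied more widely between libraries. The range was at least 1 on the log2 scale in 4 of the 7 rows found by symbol (ALDH1A1 along with those 3), against 36.1% of the 16874 genes that passed the filter on low counts. It was at least 2 in 3 of the 7, against 9.0% of those genes. The median range was 1.53 over the 7 rows and 0.77 over all genes tested. Since the choice of members used these values, the counts describe the set and nothing is read from the comparison. All 7 rows passed the filter, as did the 3 rows found by description. With LOC116275817 and LOC101001697 included, 6 of 9 rows reached a range of 1 and the number that reached 2 stayed at 3. Among the 7 rows, the values nearest the limit of 1 were 1.53 (ALDH1A1) above it and 0.90 (RXRA) below it. Those nearest the limit of 2 were 2.92 (RXRG) above it and that of ALDH1A1 below it. Fewer cells of a type and less RNA per cell cannot be told apart in RNA from whole tissue.

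**Figure D1:**
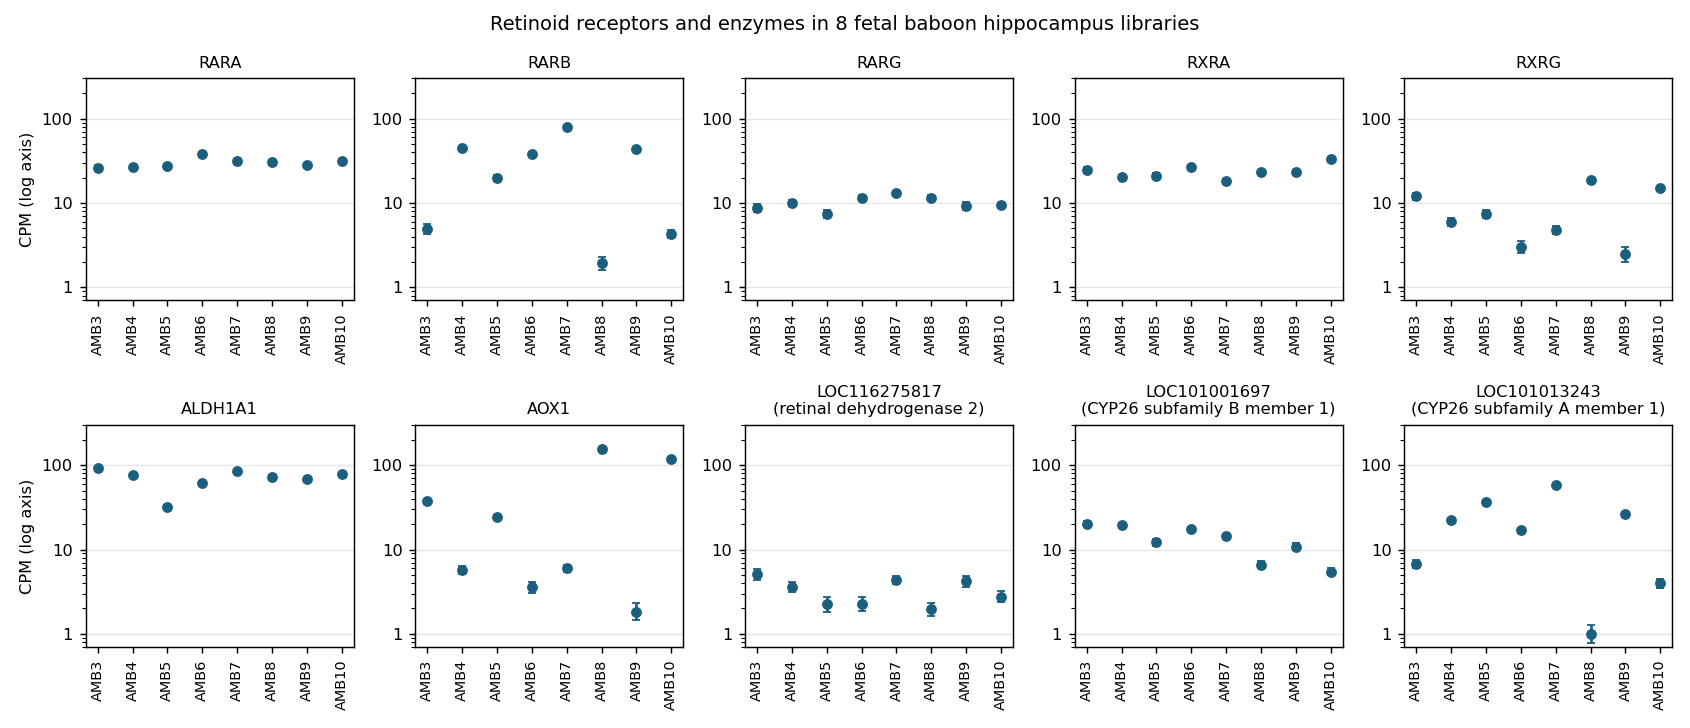
Level in CPM (vertical axis, logarithmic) of the 7 members with a row under their symbol and of the 3 rows found by description, in each of 8 libraries (horizontal axis). Points are single libraries and bars are exact 95% Poisson intervals, which cover counting error only. RARB lies between 1.94 and 80.5 CPM and AOX1 between 1.84 and 154 CPM, whereas RARA stays between 26.3 and 38.2 CPM.

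**Figure D2:**
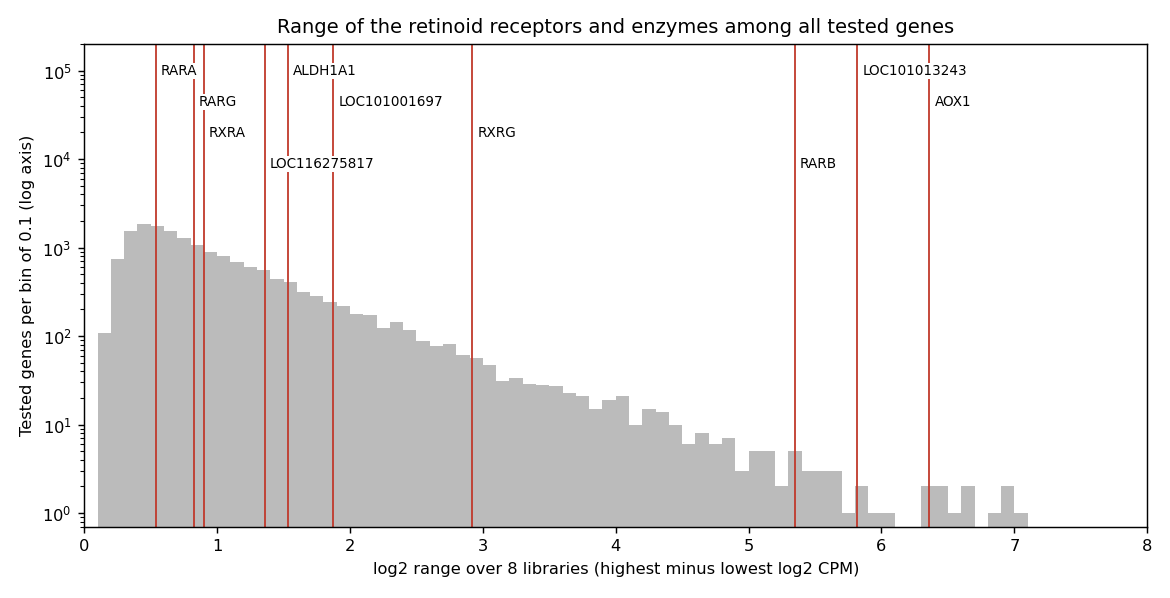
Number of tested genes (vertical axis, logarithmic) per bin of log2 range over 8 libraries (horizontal axis), for 16874 genes. Lines mark the 7 members and the 3 rows found by description, from RARA at 0.54 to AOX1 at 6.36.

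RARA encodes the broadly expressed retinoic acid receptor alpha (chromosome 17, 47431797 to 47480261, plus strand, assembly Panubis1.0). Its level was highest in AMB6, at 38.2 CPM, and lay between 26.3 CPM (AMB3) and 31.6 CPM (AMB7) in the other 7 libraries, with a median of 29.5 CPM over all 8. AMB6 alone set its small range, which was 0.54 with that library and 0.27 without it. RARG, the receptor gamma gene (chromosome 9, 47959827 to 47981446, minus strand), had a median of 9.66 CPM and values from 7.42 CPM in AMB5 to 13.2 CPM in AMB7, a range of 0.82. No library stood apart in RARG: the widest step between neighbouring libraries was 0.22 on the log2 scale.

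RARB encodes the receptor beta, which is itself induced by retinoic acid in many cell types. The gene spans chromosome 2 from 170938384 to 171709638 on the plus strand. Its level was 80.5 CPM in AMB7, 44.6 CPM in AMB4, 43.2 CPM in AMB9, 38.1 CPM in AMB6 and 20.03 CPM in AMB5. It was 4.91 CPM in AMB3, 4.29 CPM in AMB10 and 1.94 CPM in AMB8. AMB3, AMB8 and AMB10 were thus low and the other 5 libraries high, with the widest step, 2.02 on the log2 scale, between AMB3 and AMB5. Counting error is small beside these steps: the lowest library held 130 counts (exact 95% Poisson interval 1.62 to 2.31 CPM) and the highest 5744 counts (78.4 to 82.6 CPM). The highest level was 41.4-fold the lowest, a range of 5.35 that ranked 30 among the 16874 genes tested, and it was 4.22 without AMB8.

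Because RARA and RARG varied far less than RARB, the make-up of the RAR counts followed RARB. RARB supplied 64.3% of the counts of the 3 RAR genes in AMB7, 55.1% in AMB4, 53.4% in AMB9, 43.3% in AMB6 and 36.5% in AMB5. It supplied 12.3% in AMB3, 9.58% in AMB10 and 4.40% in AMB8, where the 95% Wilson interval was 3.72% to 5.20%. The share of RARA was highest in AMB8 and AMB10, at 69.5% in each, and lowest in AMB7, at 25.2%. RARG took between 10.5% (AMB7) and 26.1% (AMB8). The summed RAR level was 125 CPM in AMB7 and 39.8 CPM in AMB3, the extremes. These are shares of counts, with no correction for transcript length, so they are read across libraries and not as an order of the receptors within one.

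**Figure D3:**
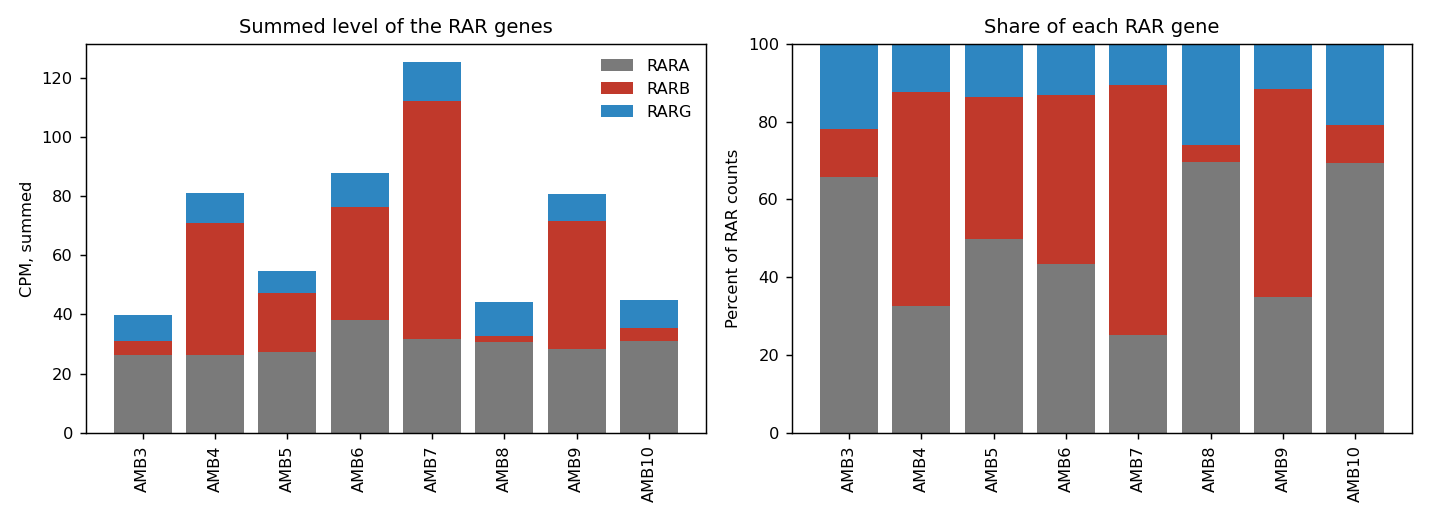
Stacked levels of RARA, RARB and RARG in CPM (left panel) and their percentages of the counts of the 3 genes (right panel) in each of 8 libraries. The RARB segment makes up 64.3% of the counts in AMB7 and 4.40% in AMB8.

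Both genes beside RARB were lowest in the 3 libraries where RARB was low, over narrower ranges. The share of all tested genes with these 3 libraries lowest was not counted. TOP2B, which encodes DNA topoisomerase II beta, lies 52 bp beyond the end of RARB on the opposite strand. It had 295 CPM in AMB10, 320 CPM in AMB8 and 356 CPM in AMB3, and 364 to 443 CPM in the other 5, a range of 0.59. AMB3 lay close to AMB6, at -0.05 and -0.02 on the log2 scale from the median of TOP2B. No counting interval was computed for TOP2B, so the order of AMB3 and AMB6 is uncertain. On the other side, 343 kb away and also on the opposite strand, THRB encodes the thyroid hormone receptor beta, which like the RARs pairs with an RXR. Its level was 172 CPM in AMB7, 162 CPM in AMB4, 121 CPM in AMB9, 119 CPM in AMB5 and 86.7 CPM in AMB6, and 59.1 CPM in AMB10, 43.6 CPM in AMB3 and 34.1 CPM in AMB8. The range of THRB was 2.33 with AMB8 and 1.98 without it. The kit keeps strand, but the sources used here do not state whether the counting used it. Within the span of RARB lie a cofilin-1 pseudogene, with at most 0.0739 CPM, and a U7 small nuclear RNA gene without counts.

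The retinoid X receptors, the common partners of the RARs, also differed from each other in range. RXRA (chromosome 13, 104546044 to 104659659, minus strand) had a median of 23.5 CPM, with 33.7 CPM in AMB10, 26.6 CPM in AMB6 and 18.1 CPM in AMB7, the lowest. Its range of 0.90 was 0.55 without AMB10. A pair of uncharacterised rows on the same strand, LOC108582301 and LOC103878077, overlaps one end of RXRA, and together they held 56.6% to 68.5% as many counts as RXRA itself. How the counting divided reads among the 3 rows is not known, so the level of RXRA is uncertain, whereas the range with all 3 summed was 0.88. RXRB, the broadly expressed RXR, was not among the 9 symbols and lay between 77.9 CPM (AMB10) and 111 CPM (AMB7), a range of 0.51.

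RXRG encodes the RXR with the most restricted expression, known in brain chiefly from the striatum and from the oligodendrocyte lineage (chromosome 1, 195570006 to 195614534, plus strand). Its level was 18.9 CPM in AMB8, 15.1 CPM in AMB10 and 12.1 CPM in AMB3. It was 7.45 CPM in AMB5, 5.96 CPM in AMB4, 4.75 CPM in AMB7, 3.03 CPM in AMB6 and 2.47 CPM in AMB9. The 3 libraries that were lowest in RARB were thus the highest in RXRG. The share of all tested genes in which these 3 libraries were lowest or highest was not counted, so nothing particular to RXRG is read from this. The highest level was 7.66-fold the lowest, a range of 2.92 that ranked 467 of 16874, and the widest step between neighbouring libraries was 0.69. Of 11 striatal projection neuron markers, 9 were tested; their score, the median of the markers' log2 CPM after each was centred on its own median, moved by 0.28 over the libraries. Their summed level lay between 165 and 214 CPM, and ISL1 and SIX3 had a library without counts. All 8 myelinating oligodendrocyte markers were tested and none was at 0. Their score was 1.92 in AMB10, 1.56 in AMB4, 0.92 in AMB8, 0.20 in AMB6, -0.21 in AMB7, -0.31 in AMB9, -1.24 in AMB3 and -1.27 in AMB5, and their summed level lay between 759 CPM (AMB5) and 4853 CPM (AMB10). The part of either cell class in the level of RXRG was not tested.

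ALDH1A1, a cytosolic retinaldehyde dehydrogenase (chromosome 13, 24280442 to 24464805, plus strand), was even in 7 libraries and low in 1. It lay at 31.7 CPM in AMB5, with an interval of 30.02 to 33.4 CPM. In the other libraries it lay between 62.0 CPM (AMB6) and 91.7 CPM (AMB3), with 85.6 CPM in AMB7, 79.1 CPM in AMB10, 75.7 CPM in AMB4, 71.9 CPM in AMB8 and 68.0 CPM in AMB9. The range was 1.53 with AMB5 and 0.57 without it. Both flanking genes were lowest in AMB5 as well. AMB5 was also the lowest library in genes elsewhere, such as RARG, DHRS3 and NCOA3, and its share over all tested genes was not counted. TMC1, a channel gene of inner ear hair cells, had 1.41 CPM in AMB5 and 2.22 to 3.40 CPM elsewhere, and ANXA1, the annexin A1 gene, had 3.27 CPM in AMB5 and 4.28 to 17.4 CPM elsewhere.

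LOC116275817 is described as retinal dehydrogenase 2, the product name of ALDH1A2, which encodes the main retinoic acid producing enzyme of the embryo and of the meninges (chromosome 7, 130618537 to 130677944, minus strand). It was low in all libraries, between 1.96 CPM (AMB8, 131 counts) and 5.08 CPM (AMB3, 206 counts), with 4.33 CPM in AMB7, 4.21 CPM in AMB9 and 3.63 CPM in AMB4. The intervals of AMB3 (4.41 to 5.82 CPM) and AMB7 (3.86 to 4.84 CPM) overlap, so the order of these libraries is within counting error, and the range was 1.36. The 8 markers of meninges and fibroblasts were all tested and none was at 0. Their score was 1.07 in AMB7, 0.71 in AMB3, 0.25 in AMB4, 0.15 in AMB9, -0.15 in AMB10, -0.51 in AMB6, -0.80 in AMB5 and -1.11 in AMB8. Their summed level lay between 194 CPM (AMB5) and 766 CPM (AMB7). Of that list, DCN, a proteoglycan gene, had 137 CPM in AMB3 and 9.12 CPM in AMB8, and PTGDS, a prostaglandin D synthase gene, had 298 CPM in AMB7 and 72.3 CPM in AMB5. The libraries above the centre of this score were the 4 with the highest level of LOC116275817. By summed level AMB10 (403 CPM) stood above AMB9 (380 CPM), so that match depends on the measure. The share of all tested genes with these 4 libraries highest was not counted. The part of meningeal tissue in the level of LOC116275817 was not tested.

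AOX1, a molybdenum-containing aldehyde oxidase of broad substrate range for which oxidation of retinaldehyde is described in mouse and rabbit, lies on chromosome 10 from 84191071 to 84279066 on the plus strand. Its level was 154 CPM in AMB8 and 118 CPM in AMB10. It was 37.6 CPM in AMB3 and 24.3 CPM in AMB5. It was 6.01 CPM in AMB7, 5.73 CPM in AMB4, 3.55 CPM in AMB6 and 1.84 CPM in AMB9, the last from 73 counts (interval 1.44 to 2.31 CPM). The widest step between neighbouring libraries, 2.01 on the log2 scale, lay between AMB7 and AMB5. The highest level was 83.6-fold the lowest, a range of 6.36 that ranked 11 of 16874, and it was 5.42 without AMB9. AOX1 has close paralogs, and reads shared with them could be divided by the counting. AOX3P, which starts 7.32 kb beyond AOX1 on the same strand, had 29.8 to 46.5 CPM, a range of 0.64, with its highest value in AMB7 and its lowest in AMB10. AOX2 and AOX4 reached at most 2.31 and 1.96 CPM, both in AMB6. No paralog was high in AMB8 or AMB10 as AOX1 was.

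The degrading enzymes gave 1 moderately variable and 1 highly variable gene. LOC101001697, the CYP26B1 row (chromosome 14, 72460531 to 72479135, minus strand), had 20.1 CPM in AMB3, 19.3 CPM in AMB4, 17.5 CPM in AMB6, 14.5 CPM in AMB7, 12.1 CPM in AMB5, 10.8 CPM in AMB9, 6.60 CPM in AMB8 and 5.45 CPM in AMB10. AMB8 and AMB10 were lowest and AMB3, low in RARB, was highest, over a range of 1.87. LOC101013243, the CYP26A1 row (chromosome 11, 40791568 to 40807633, minus strand), had 58.3 CPM in AMB7, 37.05 CPM in AMB5, 26.2 CPM in AMB9, 22.4 CPM in AMB4 and 17.03 CPM in AMB6. It had 6.76 CPM in AMB3, 3.98 CPM in AMB10 and 1.0 CPM in AMB8, from 67 counts (interval 0.777 to 1.27 CPM). The 3 lowest libraries were those of RARB, a split whose share over all tested genes was not counted. The highest level was 58.2-fold the lowest, a range of 5.81 that ranked 16 of 16874, and without AMB8 the range was 3.86.

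Set against each other, LOC101013243 supplied 80.1% of the counts of both CYP26 rows in AMB7, 75.3% in AMB5, 70.8% in AMB9, 53.7% in AMB4, 49.3% in AMB6, 42.2% in AMB10, 25.2% in AMB3 and 13.2% in AMB8. AMB10 and AMB3 differ here (intervals 38.6% to 46.0% and 22.7% to 27.8%), because LOC101001697 was low in AMB10 and high in AMB3. A pair of further rows described as cytochrome P450 26C1 lies in or across the span of LOC101013243 on the same strand, and they reached at most 0.125 and 0.0504 CPM. EXOC6, an exocyst subunit gene that lies 657 bp beyond it, had a range of 0.43.

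To find genes with a like pattern, the log2 CPM of each gene was centred on its own median. The root mean square difference from a member was then taken over the 8 libraries. This was done for 13577 tested genes, those whose symbol does not start with LOC. The median distance from RARB was 2.0. The nearest genes were RGS6, a regulator of G protein signalling, at 0.38, RORB, an orphan nuclear receptor of cortical layer neurons, at 0.44, and FOXP2, a forkhead factor of cortical and other projection neurons, at 0.51. RORB had 268 CPM in AMB7 and 17.4 to 21.9 CPM in AMB3, AMB8 and AMB10. LOC101013243, which is not one of these genes, lay at 0.70 and would rank 12 among them. THRB lay at 1.22, which ranked 113. The nearest to RARB turned upside down were RTP5, a receptor transporter gene, at 0.60, CARTPT, the gene of the neuropeptide CART, at 0.63, and GLI1, a transcription factor of hedgehog signalling, at 0.63. CARTPT had 119 CPM in AMB3, 97.9 CPM in AMB8 and 74.2 CPM in AMB10, and 7.67 to 14.8 CPM in the other libraries.

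The nearest genes to AOX1 were AQP3, a water and glycerol channel, at 1.04, CROCC2, a ciliary rootlet gene, at 1.07, and POPDC3 at 1.10. The distance is not scaled to a gene's range, so it tends to grow with that range and is not compared between members. AQP3 had 14.8 CPM in AMB8, 10.5 CPM in AMB10, 4.83 CPM in AMB3 and 0.739 to 2.40 CPM in the others. Nearest to the inverse of AOX1 were SPON2, a secreted matrix protein gene, at 0.75, CHRNA2, a nicotinic acetylcholine receptor subunit of hippocampal interneurons, at 0.88, and NOD2, an innate immune sensor, at 0.97. CHRNA2 had 44.8 CPM in AMB7 and between 1.63 and 3.99 CPM in AMB8, AMB10, AMB3 and AMB5. RARB ranked 5 among the genes nearest to the inverse of AOX1, at 0.98. RXRG ranked 17 among those nearest to AOX1 itself, at 1.30. Nearest to RXRG were CPNE4, a copine, at 0.35, the serotonin receptor gene HTR7 at 0.37, and CNPY1 at 0.40. CPNE4 had 303 CPM in AMB8, 227 CPM in AMB10, 176 CPM in AMB3 and 153 CPM in AMB5, and 49.03 to 97.6 CPM in the others.

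**Figure D4:**
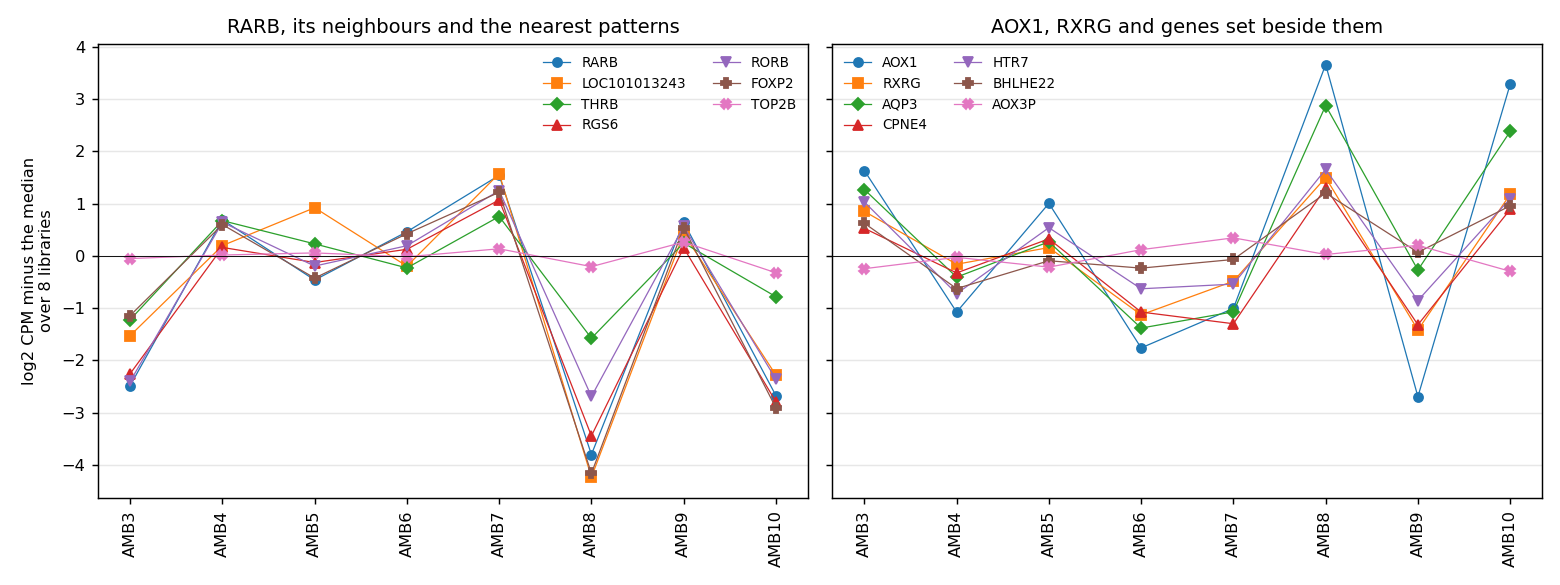
Log2 CPM minus the gene's median over 8 libraries (vertical axis) in each library (horizontal axis), with lines that only join the points of a gene. Left, RARB with LOC101013243, its neighbours THRB and TOP2B and its nearest patterns; TOP2B spans 0.59 and RARB 5.35. Right, AOX1 and RXRG with AQP3, CPNE4, HTR7, the dentate marker BHLHE22 and the paralog AOX3P; AOX1 spans 6.36 and AOX3P 0.64.

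Markers of several cell classes also differed between the libraries. Of 18 marker lists, AMB8 and AMB10 had the highest scores in 4 (dentate granule neurons, astrocytes, radial glia and ependyma) and the lowest in 3 (cortical layer and subicular neurons, interneurons and immature neurons). Over all genes tested the pair was highest in 11.9% and lowest in 11.6%. Among genes of a range of at least 2 it was highest in 18.3% and lowest in 22.3%. The counts of lists are a description only, and not every marker of a list followed its score. The dentate granule neuron markers were all tested, 7 of 7, and none was at 0 in any library. AMB8 had a score of 1.53, AMB10 of 1.21 and AMB3 of 0.35, and the other 5 libraries lay from -0.39 to -0.05. Their summed level was 609 CPM in AMB8, 560 CPM in AMB10 and 333 CPM in AMB3, and 190 to 250 CPM elsewhere. BHLHE22, a transcription factor gene of that list, had 259 CPM in AMB8, 219 CPM in AMB10 and 174 CPM in AMB3, and 73.0 to 118 CPM elsewhere, whereas DSP, the desmoplakin gene, was highest in AMB7, at 6.01 CPM.

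Of 9 cortical layer and subicular neuron markers 8 had a row and 7 were tested. Their score was -2.69 in AMB8 and -1.43 in AMB10, and between -0.20 and 0.28 in the other 6 libraries, AMB3 among them at -0.04. Their summed level was 442 CPM in AMB8, 567 CPM in AMB10 and 782 CPM in AMB3, and 851 to 996 CPM in the other 5. Its markers differed in direction. CUX2, with 12.1 CPM in AMB8, 16.2 CPM in AMB10 and 57.3 to 277 CPM elsewhere, and FOXP2 were lowest in that pair. RORB was low there and in AMB3, and TSHZ2 had 3.25 CPM in AMB8 and 128 CPM in AMB3. BCL11B ran the other way, with 91.4 CPM in AMB8, 83.6 CPM in AMB10, 66.5 CPM in AMB3 and 28.5 to 57.2 CPM elsewhere, and FEZF2 had a range of 0.41. FN1, the fibronectin gene, had 270 CPM in AMB8 and 482 CPM in AMB5. No marker of the list was at 0 in any library.

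The 8 interneuron markers, all tested and none at 0, had a score of -1.10 in AMB8 and -0.49 in AMB10, and from -0.04 to 0.22 elsewhere. Their summed level was 317 CPM in AMB8, 458 CPM in AMB10 and 573 to 743 CPM elsewhere. GAD1, the main GABA-synthesising enzyme gene of that list, had 129 CPM in AMB8, 188 CPM in AMB10 and 246 to 311 CPM elsewhere. Of 6 microglial markers 5 were tested, with none at 0, and their summed level was 63.2 CPM in AMB8 and 81.1 to 137 CPM elsewhere. The 7 pyramidal field markers, all tested and none at 0, had scores within a range of 0.57 and sums of 1618 to 2062 CPM, but single markers stood apart. FIBCD1 had 400.1 CPM in AMB8, 367 CPM in AMB10 and 9.01 to 84.1 CPM elsewhere, and HTR1A and NRIP3 were also highest in that pair, whereas MPPED1 was lowest there.

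For the remaining lists named above, the summed levels of astrocyte markers (7 of 7 tested) lay between 2882 and 6322 CPM, of radial glia markers (6 of 7) between 570 and 904 CPM, of ependymal markers (4 of 5) between 123 and 173 CPM, and of immature neuron markers (6 of 6) between 2670 and 4749 CPM. The ependymal marker TMEM212 had a library without counts. Of the radial glia markers, NES, TNC and PAX6 were highest in AMB8 and AMB10, but VIM and FABP7 in AMB3 and HOPX in AMB6. Of the ependymal markers, PIFO and RSPH1 were highest in that pair, but FOXJ1 in AMB5 (148 CPM, range 0.37) and CFAP126 in AMB9. Of the astrocyte markers, SLC1A2, ALDH1L1 and S100B had the pair highest. GFAP and GJA1 had AMB6 second to AMB10, and AQP4 and SLC1A3 had AMB3 second. AMB8 and AMB10 were low in RARB and in both CYP26 rows and high in RXRG and AOX1, and the part of tissue make-up in these values was not tested.

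AMB8 and AMB10 stood together in many genes outside the set. They were the lowest pair of libraries in 11.6% of the 16874 genes tested and the highest pair in 11.9%. Among genes of a range of at least 2 these figures were 22.3% and 18.3%. This pair was noted after the values had been seen. Of 57 tested retinoid genes 8 had the pair lowest: RARB, RDH12, LOC101013243, LOC101001697, MEIS2, NCOR1, NR4A1 and NR2F1. In 9 the pair was highest, among them RXRG, STRA6, CRABP1, DHRS3, AOX1, NCOA1, PPARD and PPARG. These are 14% and 15.8% of the 57. The pair is taken by rank alone, so a gene counts even where another library is nearly level, as in NCOR1 (AMB10 185 CPM, AMB3 186 CPM).

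The rest of the pathway was read from 9 lists with 75 genes, chosen with results of these data known. Of these 72 had a row, 3 of them found by description, and 57 passed the filter. The range was at least 1 in 31 of 57 and at least 2 in 16, against 36.1% and 9.0% of all genes tested, and its median was 1.31, against 0.77. Members are counted in these figures.

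Among carriers and uptake genes, 4 of 6 tested genes reached a range of 1 (36.1% of all genes) and 3 reached 2 (9.0%). RBP4, the plasma carrier of retinol, had 96.4 CPM in AMB8, 81.1 CPM in AMB3 and 77.9 CPM in AMB10, and its lowest level, 27.6 CPM, in AMB7. The cellular carriers of retinoic acid were named here after their values were seen, and in each of them 1 library set much of the range. CRABP1 had 50.3 CPM in AMB8 and 6.98 to 14.7 CPM elsewhere, so that its range was 2.84 with AMB8 and 1.08 without it. CRABP2 had 9.98 CPM in AMB7 and 0.909 to 3.63 CPM elsewhere, a range of 3.41 with AMB7 and 1.96 without it. FABP5, which carries fatty acids and can carry retinoic acid to PPARD, had 1.24 CPM in AMB4 and 13.7 to 24.9 CPM elsewhere.

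Of retinol dehydrogenases and retinaldehyde reductases, 3 of 8 tested genes reached a range of 1, near the share of all genes tested (36.1%), and none of the 8 reached 2 (9.0% of all genes). ADH5 had 85.0 to 117 CPM, RDH11 37.1 to 52.0 CPM and RDH14 23.1 to 31.0 CPM, with ranges of 0.46, 0.49 and 0.43. RDH10, the enzyme needed for embryonic retinaldehyde synthesis in mouse, had 6.48 to 10.9 CPM, a range of 0.75. The widest range of the list, 1.38, was that of RDH5, with 0.461 CPM in AMB5 and 1.26 CPM in AMB8. DHRS3, which reduces retinaldehyde back to retinol, had 26.7 CPM in AMB10 and 21.8 CPM in AMB8, and 10.6 to 17.0 CPM elsewhere. ALDH1A3, the remaining retinaldehyde dehydrogenase of the family, was low, from 0.332 CPM in AMB6 to 2.0 CPM in AMB4. Its range was 2.47 with AMB4 and 1.85 without it.

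In the storage and carotenoid list, 3 of 5 tested genes reached a range of 1 (36.1% of all genes) and 2 reached 2 (9.0%), namely BCO1 and BCO2, the carotenoid oxygenases. BCO2 had 4.35 CPM in AMB10 and 0.720 CPM in AMB4, a range of 2.54 with AMB10 and 1.70 without it. BCO1 had 4.59 CPM in AMB8 and 0.953 CPM in AMB7, and its range was 2.23 with AMB7 and 1.20 without it. RETSAT, the retinol saturase gene, and DGAT1, an acyltransferase that can esterify retinol, were steadier, at 26.6 to 36.4 CPM and 27.1 to 47.9 CPM. RLBP1, a retinaldehyde-binding protein gene, had 2.79 CPM in AMB7 and 3.93 to 7.10 CPM elsewhere. LRAT, the enzyme that esterifies retinol for storage, was left out by the filter. It had 2.75 CPM in AMB10, 1.75 CPM in AMB8 and 0.986 CPM in AMB3, and 0.0461 to 0.302 CPM in the other 5.

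Genes known as targets of retinoic acid did not share 1 order of libraries. In this list 11 of 14 tested genes reached a range of 1 (36.1% of all genes) and 5 reached 2 (9.0%): RARB, LOC101013243, CRABP2, TGM2 and CD38. CD38, an ectoenzyme, had 56.0 CPM in AMB10 and 12.3 CPM in AMB5, a range of 2.18 with AMB10 and 1.45 without it. TGM2, the tissue transglutaminase gene, had 9.50 CPM in AMB4 and 6.83 CPM in AMB3, and 1.63 to 2.97 CPM elsewhere. MEIS2, a homeobox gene, had 99.5 CPM in AMB7 and its lowest levels in AMB8 (40.1 CPM) and AMB10 (47.3 CPM). NRIP1, a nuclear receptor corepressor, had 124 CPM in AMB7 and 56.9 CPM in AMB3. HOXB1, a direct target in the embryonic hindbrain, had no counts in any library.

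Of the coregulators that the receptors recruit, 1 of 8 reached a range of 1 (36.1% of all genes) and none of the 8 reached 2 (9.0%), and their median range was 0.63, against 0.77 over all genes. The corepressor NCOR1 had 178 CPM in AMB8 and 185 CPM in AMB10, the lowest, with AMB3 nearly level at 186 CPM, and up to 288 CPM elsewhere. The coactivator NCOA1 had 156 to 234 CPM. NCOA3, the coactivator that reached a range of 1, had 30.1 CPM in AMB5 and 43.8 to 62.2 CPM elsewhere, and its range was 1.04 with AMB5 and 0.50 without it.

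Of the other partners of RXR and the COUP factors, 6 of 11 tested genes reached a range of 1 (36.1% of all genes) and 4 reached 2 (9.0%): PPARG, THRB, NR4A1 and NR4A2. PPARG, a lipid-sensing receptor, had 7.37 CPM in AMB8, 3.83 CPM in AMB10 and 3.23 CPM in AMB3, and 0.738 to 2.34 CPM elsewhere, a range of 3.26. THRA, the thyroid hormone receptor alpha gene, had 468 to 573 CPM, a range of 0.29, unlike THRB. NR4A2 had 125 CPM in AMB3 and 25.8 to 56.5 CPM elsewhere, a range of 2.27 with AMB3 and 1.13 without it. NR4A1, an immediate early gene, had 13.6 CPM in AMB10 and 59.3 CPM in AMB5, a range of 2.13 with AMB10 and 1.44 without it. NR2F1, the COUP-TFI gene, had 108 CPM in AMB8 and 180 CPM in AMB6, a range of 0.75.

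**Figure D5:**
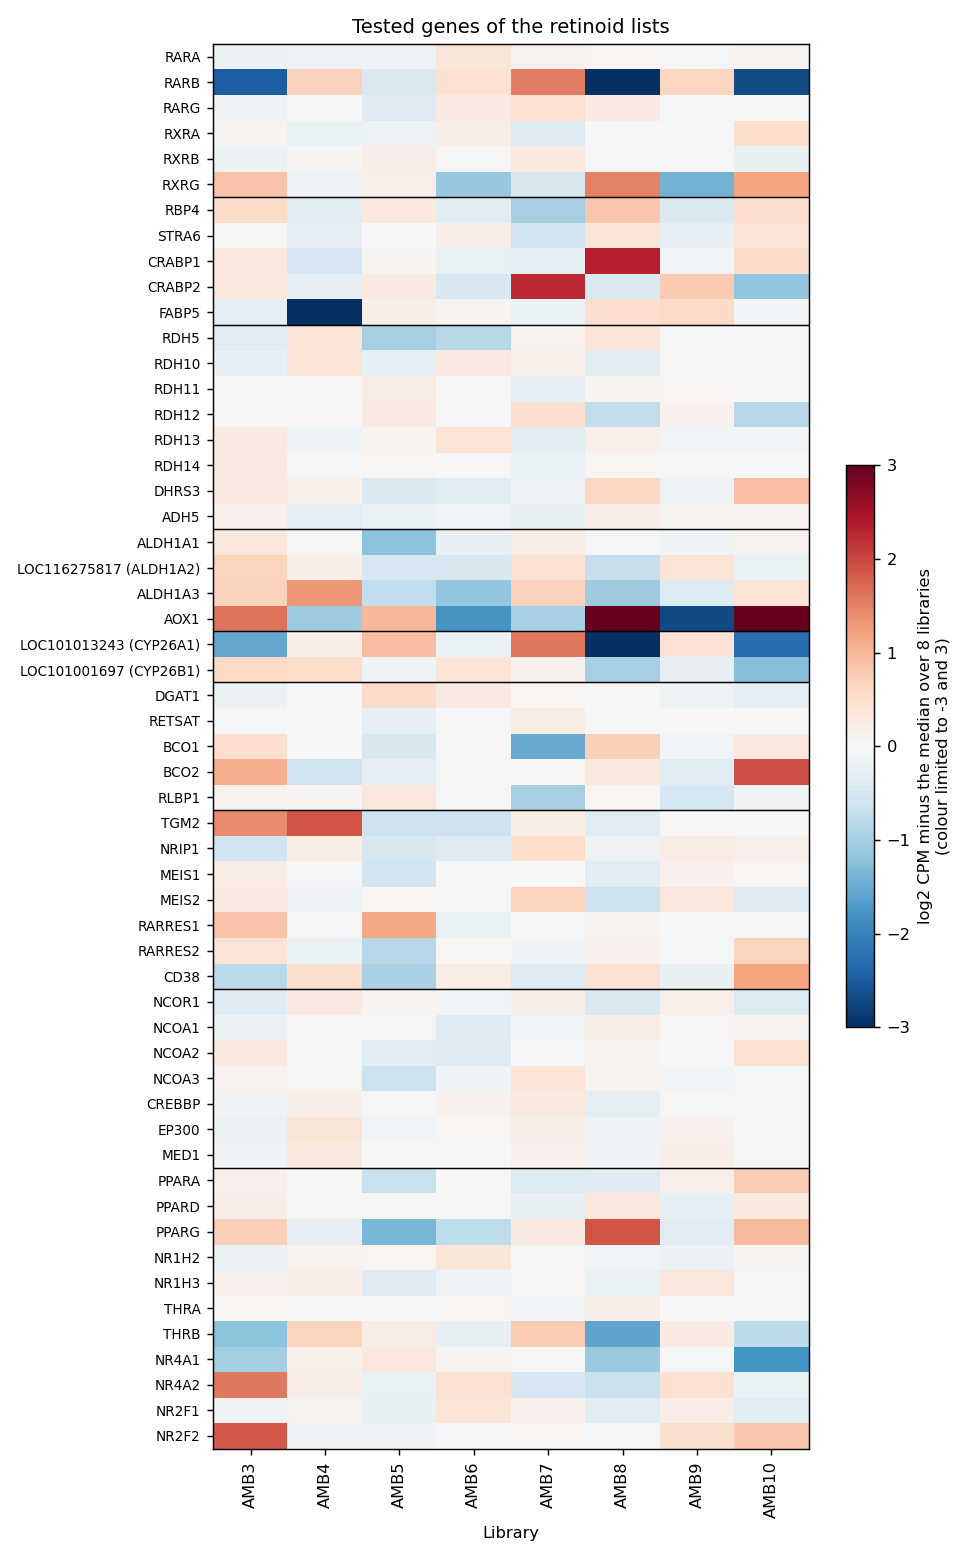
Log2 CPM minus the gene's median over 8 libraries (colour, limited to -3 and 3) for 55 of the 57 tested retinoid genes (rows) in 8 libraries (columns). A gene of several lists is drawn once, in the first. Black lines part the lists, which run from receptors at the top through carriers, retinol dehydrogenases, retinaldehyde oxidizing enzymes, degrading enzymes, storage, targets and coregulators to other RXR partners. The strongest colours are in RARB, AOX1, LOC101013243 and FABP5, with ranges of 5.35, 6.36, 5.81 and 4.30, and the coregulator rows are pale.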

How the data were processed

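Estimated counts per RefSeq gene (fractional raw values) and normalised log2 values for 8 libraries were deposited in 1 table by the authors, per the file headers. The submitters' processing notes name DESeq, with no version. The aligner is not given in the sources used here, nor are the counter and the genome build. Between 22.5% and 26.7% of the raw values above 0 were whole (tolerance 0.001). Start and end positions equalled those of the RefSeq table of assembly Panubis1.0 in 99.98% and 99.96% of genes, and in all 10 rows described in detail. Total counts of 40404878 to 71648654 make counting error small for all but the lowest values.

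Counts were rounded and filtered with filterByExpr in edgeR 4.0.16 (R 4.3.3; minimum count 10, no groups), which left 16874 of 37053 genes. Library sizes were those of the kept genes times TMM factors, and log2 CPM had a prior count of 2. CPM intervals are exact Poisson and shares have Wilson intervals, both at 95% and for counting error only. Scripts (Python 3.11.15, pandas 2.3.3, numpy 2.4.6, scipy 1.17.1, matplotlib 3.10.9) were tested on simulated data. The labels give no groups, so no groups were compared and no p-value was computed.

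The members, lists and tests were chosen with earlier results of these data known. Named genes were the members; of each retinoid list the 3 of highest median CPM and the 1 of widest range; for each member the 3 nearest patterns (for RARB and AOX1 also inverted) and the nearest gene on either side; and of each marker list printed the gene of highest median and the 1 of widest range. Others named were chosen after their values were seen. Alternatives were DESeq2 1.42.0 size factors, total counts, prior counts of 0.5 and 5, no filter, the deposited log2 values and leaving out each library; added after seeing the data were the rows found by description and the rows overlapping RXRA. Some genes of the lists enter the counts but are not reported here by name.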

Additional observations from a re-analysis of the deposited data

Results flagged for a closer look

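In 6 of 108 genes examined, 1 library lay far from the other 7, with a gap to the nearest library above 0.526 of the whole range. Chance gives about 1 in 20 such results, so the number flagged is near that rate and nothing is read from it. The genes examined were 55 tested retinoid genes and 53 genes nearest to the members in pattern or on the chromosome. In ALDH1A1 the gap between AMB5, at 31.7 CPM, and AMB6, at 62.0 CPM, was 0.631 of the range, and the range was 1.53 with AMB5 and 0.57 without it. In FABP5 the gap between AMB4, at 1.24 CPM, and AMB3, at 13.7 CPM, was 0.799 of the range, and the range was 4.30 with AMB4 and 0.86 without it. In CRABP1 the gap between AMB8, at 50.3 CPM, and AMB10, at 14.7 CPM, was 0.621 of the range. The other 3 genes were found by their likeness to a member, so their flags follow in part from that choice. The rate of 1 in 20 does not hold for genes chosen in this way. NEK7 (0.590; 8.23 CPM in AMB5) and RNFT1 (0.561; 2.84 CPM in AMB5) were apart in the library that was low in ALDH1A1, and BEGAIN (0.571; 63.4 CPM in AMB6) in the library that was high in RARA.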

How the results depend on the processing

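The counts of members at a range of at least 1 and 2, of retinoid genes at 2 and of all tested genes at 2 stayed within 1.5 times the reported counts under every alternative but 1: without the filter on low counts, 5890 genes reached 2 in place of 1518. That alternative adds genes with few counts. Under DESeq2 size factors, total counts, prior counts of 0.5 and 5 and the deposited log2 values, no range of the 10 rows moved by more than 0.084 (RARG, total counts). The median gene moved by at most 0.067 on the log2 scale under another scaling. Leaving out 1 library changed a range by over 1.5 times in RARA (lowest value 0.27, without AMB6), RXRA (0.55, without AMB10), ALDH1A1 (0.57, without AMB5) and LOC101013243 (3.86, without AMB8); the range of RARB was then 4.22 to 5.35, of RXRG 2.60 to 2.92 and of AOX1 5.42 to 6.36. Summing the overlapping rows gave RXRA a range of 0.88. No paired analysis was possible because the labels give no groups. Depth limits the order of libraries in rows of few counts, such as LOC116275817.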

Other observations

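Genes nearest in pattern to the steadier members, with their root mean square distance over the 8 libraries, were as follows. Nearest to RARA were BEGAIN, a postsynaptic scaffold-associated gene, at 0.07, and NAT8L and PEPD, also at 0.07. Nearest to RARG were HDAC7, a histone deacetylase gene on the same chromosome, and SRSF11, a splicing factor gene, both at 0.06, and LRCH1 at 0.07. Nearest to RXRA were ARHGEF40, MMP14 and BBS2, at 0.10 to 0.11. Nearest to ALDH1A1 were PLD6 at 0.15, NEK7 at 0.16 and RNFT1 at 0.17. All 3 were lowest in AMB5 as ALDH1A1 was, which follows from their choice by likeness to it.

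Nearest to LOC116275817, the ALDH1A2 row, were LRRC17 at 0.17, DDR2, a collagen receptor gene, at 0.17, and the adrenergic receptor gene ADRA1A at 0.20. Nearest to LOC101001697, the CYP26B1 row, were OXTR, the oxytocin receptor gene, at 0.22, NXPH4 at 0.24 and C1S, a complement protease gene, at 0.26. OXTR had 2.22 CPM in AMB3 and 0.673 CPM in AMB8. Nearest to LOC101013243, the CYP26A1 row, were TMEM132D at 0.52, IL1RAPL2 at 0.57 and HS3ST2, a heparan sulfate sulfotransferase gene, at 0.58. TMEM132D had 118 CPM in AMB7 and 6.97 CPM in AMB8.

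The vitamin D receptor gene VDR, a partner of RXR left out by the filter, had 1.56 CPM in AMB8, 0.783 CPM in AMB10 and 0.617 CPM in AMB7, and 0.0461 to 0.376 CPM in the others.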
